A study of Mus musculus with 42 samples.

Results

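The data described here are the whole blood transcriptomes of 9 of the 42 mice of the series. The question put to them was whether tDCS over the hippocampus left a trace in the blood of mice without transgenes. All 9 were C57BL/6 (WT) mice of 6 months (6 mo.) with the epicranial electrode over the hippocampus. They were chosen by their labels alone, and every gene counted was kept. The 3 tDCS mice (titled U, V and X) received anodal current once a day on consecutive days, and the 6 sham mice (W, Y, AA, AY, AZ and BA) had the same implant and handling without current. Per the study's methods, the scalp was removed at surgery in stimulated and sham mice alike, stimulation took place in awake mice after recovery from anesthesia, and blood was taken within the hour after the last session. The other 33 mice were C57BL/6 mice of another age or electrode site and 3xTg-AD mice, which carry human transgenes used to model Alzheimer's disease. The 9 mice are compared with 8 tDCS and 5 sham 3xTg-AD mice of 6 mo. with the hippocampal electrode, and some levels are set beside those of 4 C57BL/6 tDCS mice of 6 mo. with the prefrontal electrode. The scale of the levels was set over all 42 mice, and some alternative fits used mice beyond the 9.

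tDCS passes a weak constant current between an electrode on the skull and one on the body, and anodal current over a region is known to shift neuronal excitability and synaptic plasticity there. Whole blood holds no neurons. Its RNA comes from red cell precursors and reticulocytes, platelets, granulocytes, monocytes and lymphocytes, so that a difference in blood RNA can be in the mix of cells or in the RNA of each cell. In bulk samples fewer cells of a type and less RNA per cell cannot be told apart.

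Reads were counted per gene from 3′ mRNA libraries made after depletion of alpha and beta globin, and levels are given as counts scaled by library size (CPM) on 1 scale set over all 42 mice. The 6 sham libraries held 13451155 to 27122842 reads and the 3 tDCS libraries 23824919 to 24758671. Neither the total, the share of reads on haemoglobin genes, the number of genes with a read nor the share of the 10 most abundant genes differed between the groups beyond the spread of the mice (exact permutation test, two-sided, p = 0.679 to 0.988, adjusted p = 0.988 for each of the 4 measures). With 3 against 6 mice this test cannot go below 0.0119. The labels fitted the data. A globin gene, Hbb-bs or Hba-a1, was the most abundant gene of each of these 9 libraries. The male-expressed gene Ddx3y was at 10.9 to 17.1 CPM in all 9 mice and Xist had at most 3 reads. Gm11942, at a median of 2504 CPM in the 3xTg-AD mice with the hippocampal electrode, was at 3.08 to 13.2 CPM here.

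Some libraries stood apart. The sham mice AY, AZ and BA lay at 55.7, 77.4 and 73.0 on the first principal component, which held 28.9% of the variance. X lay at 11.0 and the other 5 mice between -58.1 and -13.1. In AY, AZ and BA, alpha globin (Hba-a1 and Hba-a2) took 13.6% to 21.1% of the reads, against 0.756% to 2.72% in the other 6 mice, and the ratio of alpha to beta globin reads was 1.02 to 2.10 against 0.0313 to 0.294. A set of 27 genes, picked after their values were seen, was at least 8-fold higher in each of these 3 mice than in the highest of the other 6. Among them were Bpifa6, Cartpt, Lrp2 (the endocytic receptor megalin), Sptlc3 and Sphk1 (sphingolipid enzymes), Cyp4a10 (a fatty acid hydroxylase) and Pck1 (a gluconeogenic enzyme). Their summed level was 513 CPM in AY, 1647 CPM in AZ and 1512 CPM in BA, and at most 20.8 CPM in the other 6 mice. The labels give no batch that sets these 3 mice apart, and all 3 are sham mice, so that this difference and that between sham and tDCS cannot be told apart within them. Medians of gene lists against W, Y and AA alone are given below beside those with all 6 sham mice. Fold changes of single genes against W, Y and AA are given for some genes only, and those of others moved as well.

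**Figure D1:**
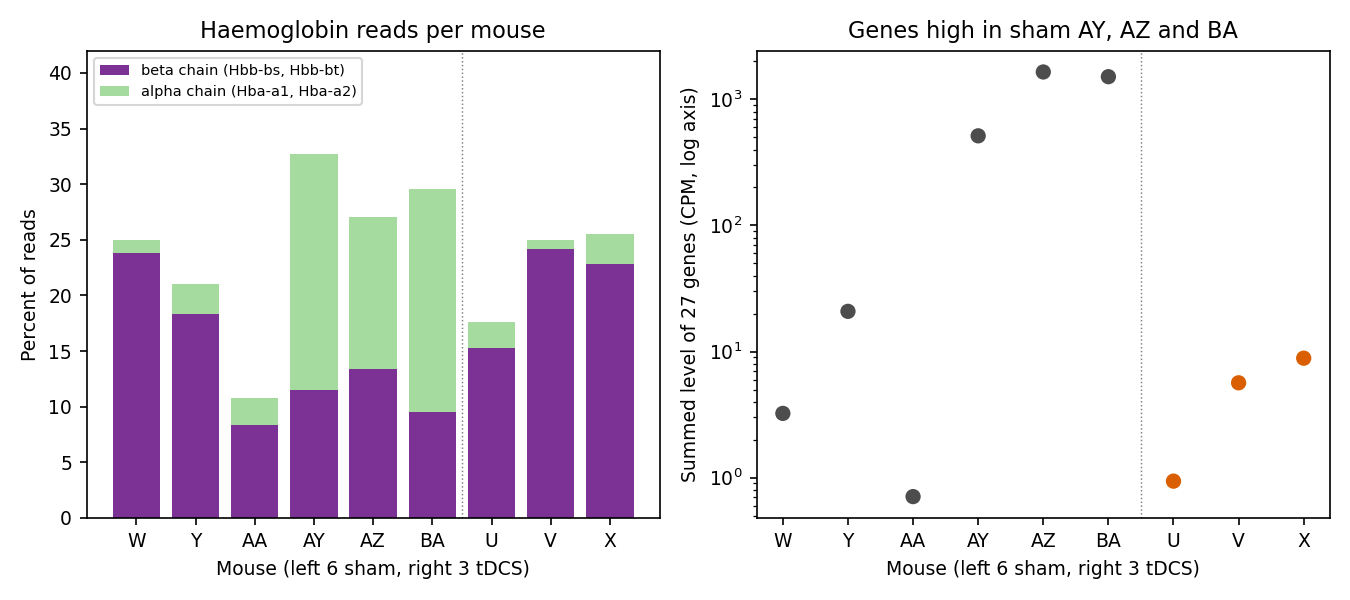
The left plot gives the percent of reads on beta and alpha globin genes in each of the 9 mice (bars, sham left and tDCS right), and the right plot the summed level in CPM, on a log axis, of the 27 genes picked for being high in AY, AZ and BA (grey sham, orange tDCS). Alpha globin takes 13.6% to 21.1% of reads in AY, AZ and BA and at most 2.72% in the other 6 mice, and the 27 genes sum to 513 CPM or more in these 3 and to 20.8 CPM or less in the others.

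Sham mouse W and tDCS mouse V were the closest pair of libraries, with r = 0.981 between their log2 levels, against 0.889 to 0.951 for the other pairs. They still differed by more than sampling noise. The median chi-square of a gene was 2.43 between them, against 0.455 for sampling noise alone and 7.02 to 51.9 in the other pairs. They were kept apart because the labels give them as separate mice of different groups. Separate libraries of 1 mouse would also differ by more than sampling noise, so these values do not show by themselves that the mice are separate. The tDCS mouse X held the most RNA of skin genes, as given below.

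No gene passed an adjusted p of 0.05 between the 3 tDCS and the 6 sham mice, of 15592 genes tested with edgeR (0% called). The smallest adjusted p was 0.998. At an unadjusted p under 0.05 edgeR found 514 genes (3.30%), of which 212 (1.36%) were higher and 302 (1.94%) lower after tDCS. DESeq2 called 0 genes, with 521 (3.34%) at an unadjusted p under 0.05, and limma voom 0 genes, with 501 (3.21%), of which 371 (2.38%) were higher and 130 (0.834%) lower. With no difference at all, a share of about 0.05 of the genes would be expected at an unadjusted p under 0.05. edgeR, DESeq2 and limma voom each found fewer. The fold change was above 0 in 47.7% of the genes, and the median log2 fold change was -0.02. All 3 tDCS mice lay above all 6 sham mice in 95 genes (0.609%) and below them in 94 (0.603%).

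What this comparison could have shown depended on the level of a gene. The median SE of a log2 fold change was 0.31 for the 2673 genes at a mean of 10 to 100 CPM, 0.40 for the 6416 genes at 1 to 10 CPM, and 0.96 for the 5938 genes below 1 CPM. It was 0.37 for the 565 genes at 100 CPM or more. The 95% interval lay within 1 of 0 on the log2 scale, which leaves no room for a doubling or a halving, for 4220 genes (27.1%), and for 65.6% of the genes at 10 to 100 CPM. For the remaining genes the interval leaves room for a change of that size, which is not shown to be absent.

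**Figure D2:**
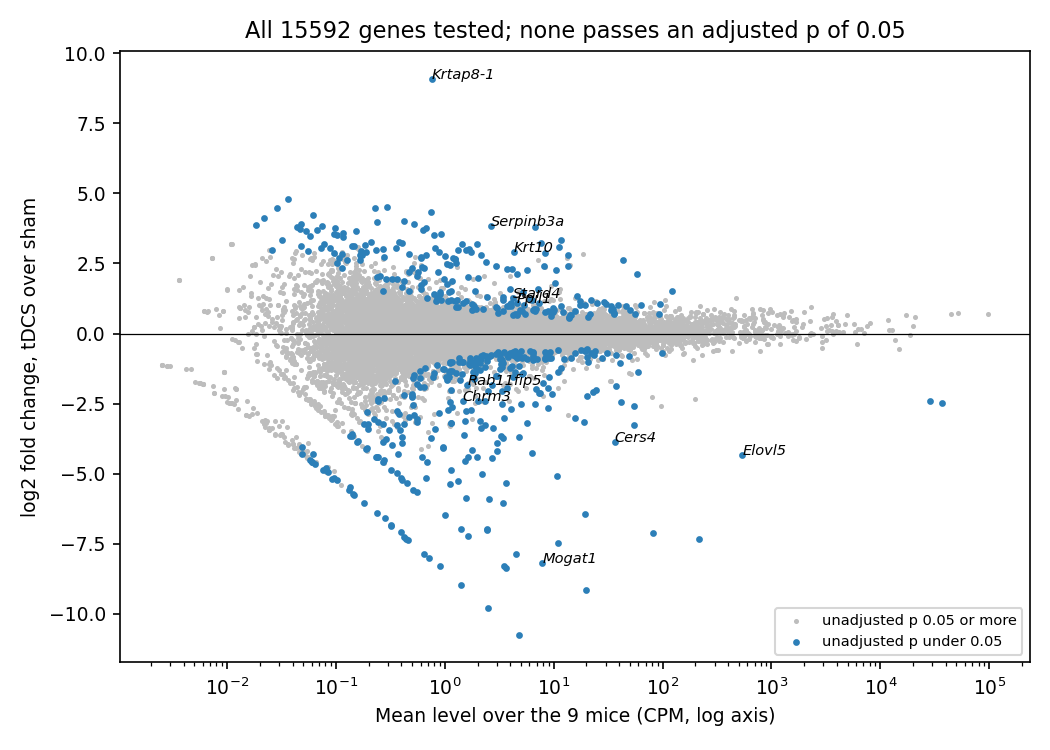
Each point is 1 of the 15592 genes, with its mean level over the 9 mice in CPM on a log axis and its log2 fold change, tDCS over sham. Blue points are the 514 genes at an unadjusted p under 0.05, and the labelled genes below 0 include Mogat1, Cers4 and Elovl5, which were high in sham mice AY, AZ and BA.

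Among genes with a higher mean after tDCS and at least 1 CPM in a group, the 10 with the smallest p were Krtap8-1, Klk13, Defb4, Them5, Ppil1, Serpinb3a, Hrnr, Lce1g, Stard4 and Krt10. Ppil1, a peptidyl-prolyl isomerase of the spliceosome (chromosome 17, 29250803 to 29264186, GRCm38), had 5.36, 3.07, 2.91, 2.77, 2.43 and 3.50 CPM in sham mice W, Y, AA, AY, AZ and BA, and 5.87, 7.83 and 7.56 CPM in tDCS mice U, V and X. All 3 tDCS mice lay above all 6 sham mice, with sham mouse W the nearest to them. The log2 fold change was 1.11 (SE 0.30, 95% interval 0.46 to 1.75, unadjusted p = 0.00255), and 0.94 against W, Y and AA alone. A second gene, AC162182.3, lies on the opposite strand, and the strand setting of the counting is not stated. In the 4 C57BL/6 tDCS mice with the prefrontal electrode, which had more sessions, Ppil1 was at 5.03 ± 2.36 CPM.

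Stard4, a carrier of cholesterol between membranes, had 3.92, 3.71, 2.68, 2.18, 2.56 and 2.32 CPM in the sham mice in the same order and 3.13, 6.76 and 10.9 CPM in U, V and X. V and X were above every sham mouse and U was inside the sham range. The log2 fold change was 1.28 (SE 0.36, 95% interval 0.50 to 2.06, unadjusted p = 0.00356), and 0.79 without X.

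The other 8 of these genes are known from skin, hair or other surface epithelia, or from fatty acid handling. Krt10, the keratin of the upper epidermis (chromosome 11, 99385254 to 99389364), had 3.31, 3.31, 0.303, 0.0839, 0.680 and 0.421 CPM in sham and 3.54, 3.74 and 23.4 CPM in tDCS mice. The groups did not overlap, but U and V lay close above W and Y while X stood far above all. Its log2 fold change was 2.90 (SE 0.84, 95% interval 1.10 to 4.71, unadjusted p = 0.004), and 1.43 without X. Gm11940 lies opposite Krt10, and genes also lie opposite Klk13, Hrnr, Mogat1, Cers4 and Cldn10. Serpinb3a, an epithelial protease inhibitor, was at 0.765, 0.890 and 19.2 CPM in U, V and X against 0 to 1.10 CPM (median 0.472) in sham mice. Only X was outside the sham range, and the log2 fold change went from 3.83 to 0.76 without it. Klk13 (a kallikrein peptidase), Defb4 (a beta-defensin), Hrnr and Lce1g (proteins of the cornified layer) and Them5 (an acyl-CoA thioesterase) had log2 fold changes of 2.96, 3.78, 4.33, 3.07 and 3.89. In each of these 5 genes X was the highest of the 9 mice, and without X the values were 1.74, 2.67, 2.56, 1.66 and 2.38. Krtap8-1, a hair keratin-associated protein, had no read in any sham mouse nor in V, 0.556 CPM in U and 6.29 CPM in X.

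**Figure D3:**
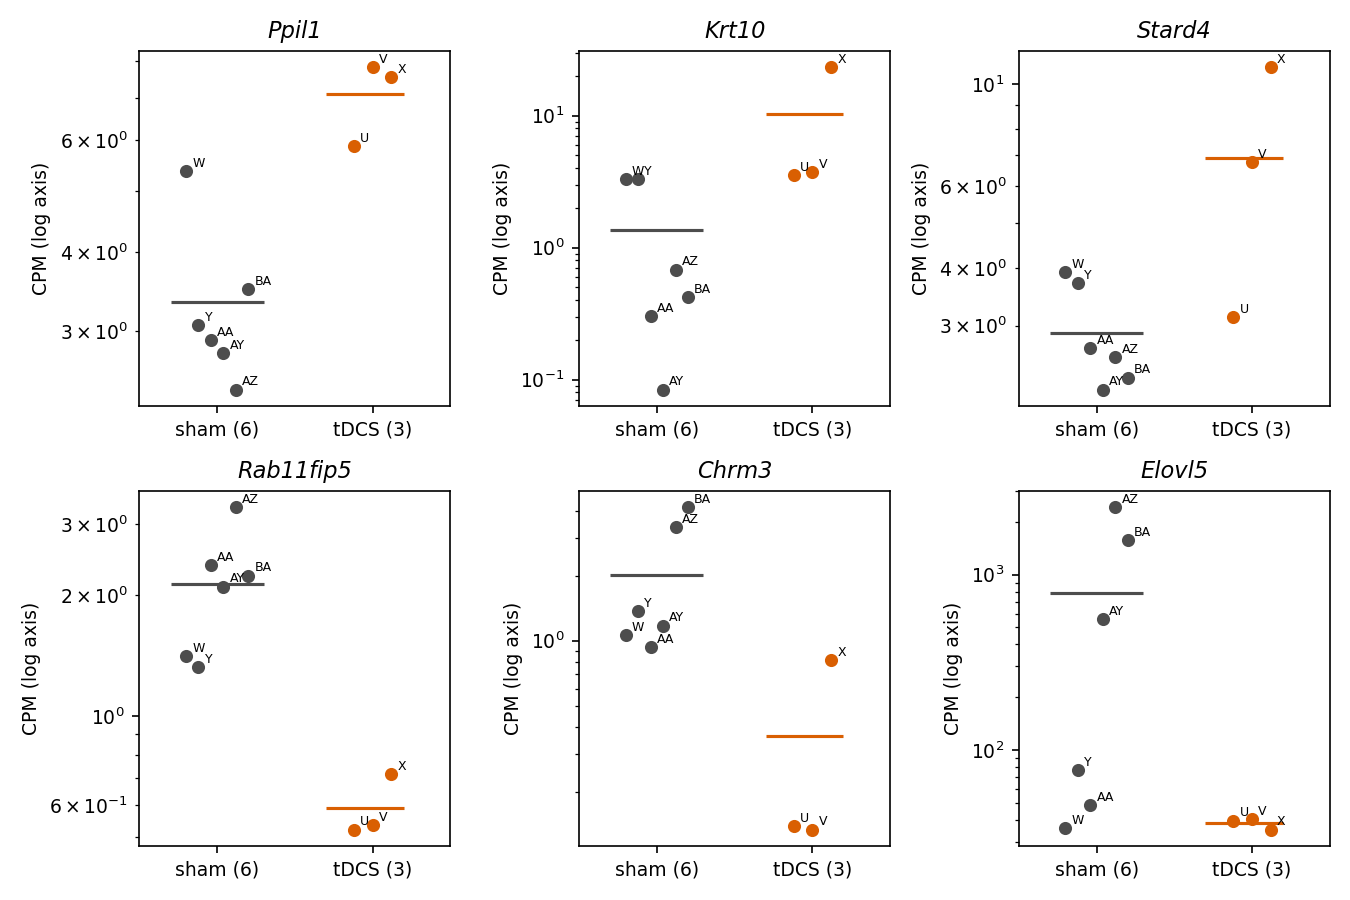
Levels in CPM (log axes) of Ppil1, Krt10, Stard4, Rab11fip5, Chrm3 and Elovl5 in each of the 6 sham (grey) and 3 tDCS mice (orange), with the mouse's title beside the point and the group mean as a line. Ppil1, Krt10, Rab11fip5 and Chrm3 do not overlap between the groups, whereas Elovl5 is high in sham mice AY, AZ and BA and alike in the other 6.

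Among genes with a lower mean after tDCS, the 10 with the smallest p were Rab11fip5, Dgat2l6, Mogat1, Cers4, Pck1, Slc25a34, Elovl5, Chrm3, Cldn10 and AU021092. Rab11fip5, an effector of Rab11 in endosome recycling (chromosome 6, 85334962 to 85374634), had 1.41, 1.32, 2.38, 2.10, 3.31 and 2.23 CPM in the sham mice and 0.521, 0.534 and 0.716 CPM in the tDCS mice. Every tDCS mouse was below every sham mouse. The log2 fold change was -1.82 (SE 0.44, 95% interval -2.76 to -0.87, unadjusted p = 0.00106), the smallest p of these 10, and -1.49 against W, Y and AA alone. Leaving out each mouse in turn gave -1.98 to -1.63.

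Chrm3, the muscarinic acetylcholine receptor M3 (chromosome 13, 9875486 to 10360847), had 1.06, 1.37, 0.935, 1.17, 3.36 and 4.17 CPM in sham and 0.139, 0.133 and 0.814 CPM in tDCS mice. Here too the groups did not overlap, with X the nearest to the sham mice and AZ and BA the highest. Its log2 fold change was -2.42 (SE 0.75, 95% interval -4.03 to -0.81, unadjusted p = 0.00624), and -1.57 against W, Y and AA alone. Several other genes overlap Chrm3 on either strand, and its counts are uncertain for that reason. In the prefrontal C57BL/6 tDCS mice, Rab11fip5 was at 1.84 ± 0.656 CPM and Chrm3 at 0.748 ± 0.543 CPM.

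In the other 8 lower genes AZ and BA were the highest mice, and AY was the next. Elovl5, an elongase of polyunsaturated fatty acids (chromosome 9, 77917364 to 77984519), had 35.8, 76.6, 48.6, 559, 2438 and 1568 CPM in the sham mice and 39.6, 40.5 and 35.2 CPM in the tDCS mice. W, Y and AA lay near the tDCS mice, and AY, AZ and BA far above. The log2 fold change was -4.34 (SE 1.34, 95% interval -7.22 to -1.47, unadjusted p = 0.00606), and -0.45 against W, Y and AA alone. Cers4, a ceramide synthase, had 3.46, 8.69, 4.25, 43.9, 120.1 and 136 CPM in sham and 2.47, 3.43 and 4.72 CPM in tDCS mice, with a log2 fold change of -3.87 that became -0.60 against W, Y and AA. Cldn10, a claudin of tight junctions, went from -3.66 to -1.42 and AU021092 from -5.89 to -1.60 in the same way. Mogat1 (triglyceride synthesis), Dgat2l6 (an acyltransferase), Pck1 and Slc25a34 (a mitochondrial carrier) had at most 3 reads in the tDCS mice together, so no fold is given. Their highest sham levels were 31.1, 17.9, 12.9 and 11.8 CPM, each in AZ.

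Gene lists were described by how many members had a higher or lower fold change, beside the 47.7% higher and the median of -0.02 over all genes tested. Counts of members at an unadjusted p under 0.05 stand beside the 3.30% of all genes. No member of any of the 25 lists passed an adjusted p of 0.05. The lists of the white cells of blood gave no common direction. Of the 16 neutrophil genes, 13 had a fold change above 0, a median on the log2 scale of 0.29 and 0 at an unadjusted p under 0.05. Their summed level was 3138, 3034, 1246, 633, 1012 and 739 CPM in W, Y, AA, AY, AZ and BA, and 2459, 2499 and 3058 CPM in U, V and X. The tDCS mice lay inside the span of the sham mice, level with W and Y and above the other 4. Against W, Y and AA alone the median was -0.20, with 6 of 16 genes above 0. S100a8, a calcium-binding protein that neutrophils hold in large amounts, had 1030.2, 890.1, 391, 225, 318 and 265 CPM in sham and 742, 921 and 1172 CPM in tDCS mice, a log2 fold change of 0.88 (SE 0.48, 95% interval -0.15 to 1.92, unadjusted p = 0.0893) that was 0.32 against W, Y and AA. Ltf, the granule protein lactoferrin, had 0.913, 2.05, 1.06, 1.85, 5.74 and 7.58 CPM in sham and 1.60, 1.07 and 1.53 CPM in tDCS mice, with AZ and BA the highest, and its log2 fold change turned from -1.18 to 0.082 against W, Y and AA.

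Of 13 monocyte genes, 7 had a fold change above 0 (median 0.36, 1 gene at an unadjusted p under 0.05), and against W, Y and AA alone the median was -0.12. Lyz2, the lysozyme of myeloid cells, had 963, 488, 499, 581, 411 and 502 CPM in sham and 574, 1209.6 and 752 CPM in tDCS mice, highest in V and W. Of 9 eosinophil and basophil genes, 7 were above 0 (median 0.17), and against W, Y and AA alone 4 of 9 were (median -0.23). Mcpt8, a basophil protease, had 0.487, 0.934 and 3.22 CPM in U, V and X against 0.269 to 0.771 CPM (median 0.640) in sham mice, and was highest in X, and Fcer1a, the alpha chain of the IgE receptor, had a log2 fold change of 1.21 (SE 0.67, 95% interval -0.24 to 2.66, unadjusted p = 0.0945), and 0.80 against W, Y and AA.

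B cell genes had the most even direction among the lymphocyte lists, with 10 of 12 below 0, a median of -0.25 (-0.22 against W, Y and AA) and 0 at an unadjusted p under 0.05. Their summed level was 657, 953, 1168, 978, 1286 and 1027 CPM in the sham mice and 864, 726 and 689 CPM in the tDCS mice, where sham mouse W was the lowest of all 9. Ighm, the heavy chain of IgM, had 205, 321, 372, 365, 471 and 348 CPM in sham and 270.0, 219.7 and 191 CPM in tDCS mice, a log2 fold change of -0.60 (SE 0.31, 95% interval -1.26 to 0.069, unadjusted p = 0.0749), and -0.37 against W, Y and AA. In Ighm only sham mouse W lay within the range of the tDCS mice. T cell genes had 8 of 15 above 0 (median 0.02, and 0.029 against W, Y and AA) and NK cell genes 5 of 11 (median -0.03, and -0.22). Leaving out 1 mouse in turn moved these medians across 0, over -0.13 to 0.11 and -0.11 to 0.072. Lck, the kinase of the T cell receptor, had 35.0, 33.2, 50.6, 30.4, 29.2 and 32.6 CPM in sham and 30.1, 20.6 and 14.5 CPM in tDCS mice, a log2 fold change of -0.68 (SE 0.29, 95% interval -1.29 to -0.062, unadjusted p = 0.0334). Cd4, the co-receptor of helper T cells, had a log2 fold change of -0.88 (SE 0.41, 95% interval -1.76 to -0.00049, unadjusted p = 0.0499), and -0.38 against W, Y and AA. Eomes, a transcription factor of NK and CD8 T cells, had 1.94, 3.01, 2.27, 2.68, 2.81 and 2.99 CPM in sham and 2.02, 1.25 and 1.27 CPM in tDCS mice, a log2 fold change of -0.78 (SE 0.34, 95% interval -1.51 to -0.053, unadjusted p = 0.0373), and Klrd1 (CD94), a receptor of NK cells, one of 0.55 (SE 0.41, 95% interval -0.33 to 1.44, unadjusted p = 0.201), and 0.34 against W, Y and AA.

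Genes of red cells lay on the higher side, in lists that share Alas2 and Fech. Of 16 erythroid genes 14 were above 0 (median 0.34, and 0.20 against W, Y and AA) and of 8 genes of haem synthesis all 8 were (median 0.27, and 0.40 against W, Y and AA), with 1 and 0 at an unadjusted p under 0.05. The erythroid sum was 63638, 41209, 49290.4, 57195, 24082 and 46927 CPM in the sham mice and 70675, 62422 and 39192 CPM in the tDCS mice, and both groups held low and high mice. Tfrc, the transferrin receptor, had 65.6, 82.8, 41.3, 46.0, 20.0 and 30.7 CPM in sham and 105, 53.8 and 83.7 CPM in tDCS mice, a log2 fold change of 0.77 (SE 0.39, 95% interval -0.067 to 1.61, unadjusted p = 0.0684), and 0.37 against W, Y and AA. Ermap, a membrane protein of erythroid cells, had 4.72, 2.99, 4.35, 3.94, 2.79 and 4.30 CPM in sham and 4.24, 4.98 and 9.09 CPM in tDCS mice, and its log2 fold change of 0.69 was 0.28 without X. Cpox and Urod, enzymes of haem synthesis, had log2 fold changes of 0.50 (SE 0.33, 95% interval -0.21 to 1.22, unadjusted p = 0.151) and 0.41 (SE 0.33, 95% interval -0.30 to 1.13, unadjusted p = 0.237), and Cpox was 0.24 against W, Y and AA and -0.046 without U, the only mouse above 40.4 CPM. The 9 haemoglobin genes gave 5 above 0 and a median of 0.39, which turned to -0.32 without V. Against W, Y and AA alone 9 of 9 were above 0, with a median of 0.45. Hba-a1, an alpha chain, had 6451, 10300.5, 9606, 132949, 42061 and 102387 CPM in sham and 11716, 4369 and 11010.0 CPM in tDCS mice. W, Y and AA were level with the tDCS mice, and the log2 fold change of -2.49 became 0.057 against them. Hba-a2, a near-identical copy whose reads the counting could divide either way, went from -2.41 to 0.20. Platelet genes had 11 of 16 above 0 (median 0.20, and 0.14 against W, Y and AA), and without V the median turned to -0.063. Clec1b, a platelet activation receptor, was at 0.57 (SE 0.48, 95% interval -0.47 to 1.62, unadjusted p = 0.257) and Treml1, a protein of platelet granules, at 0.42 (SE 0.39, 95% interval -0.42 to 1.26, unadjusted p = 0.298). Against W, Y and AA they were at 0.10 and 0.17.

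**Figure D4:**
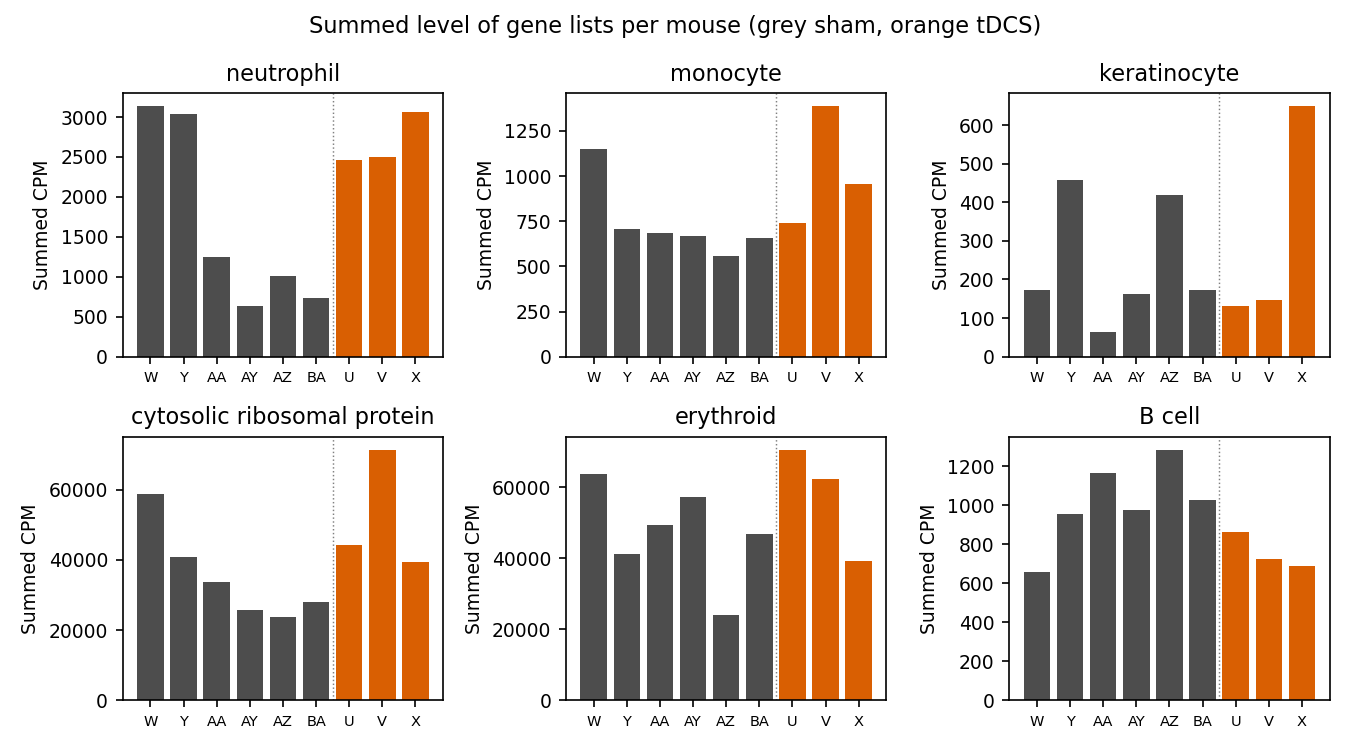
Summed level in CPM of 6 gene lists in each of the 9 mice (bars from 0, grey sham on the left, orange tDCS on the right). The neutrophil sum is 2459 to 3058 CPM in the tDCS mice, level with sham mice W and Y, the keratinocyte sum is highest in X, and the ribosomal protein sum is highest in V and W.

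Cytosolic ribosomal proteins, which form the ribosome with its RNA, lay almost all on the higher side. Of 81 genes, 77 had a fold change above 0 (95.1%), with a median of 0.53. At an unadjusted p under 0.05 were 3 of the 81, which is near the share of 3.30% of all genes. They were Rpl28, Rpl35 and, named after its value was seen, Rpl10a. In 0 of the 81 genes did all tDCS mice lie above all sham mice, against 0.609% of all genes. The sum over the list was 58702, 40861, 33757, 25659.8, 23806 and 28124 CPM in the sham mice and 44367, 71491 and 39354 CPM in the tDCS mice. V and W were the highest, and AY, AZ and BA the lowest. The median was 0.25 against W, Y and AA, with 72 of 81 genes above 0, and 0.21 without V. Since all these genes share the libraries, the count of 77 is no count of independent observations.

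Rpl28 had 41.0, 29.3, 26.2, 28.3, 22.2 and 30.4 CPM in sham and 46.9, 55.0 and 40.4 CPM in tDCS mice, where only X (below W) kept the groups from parting, and a log2 fold change of 0.70 (SE 0.25, 95% interval 0.16 to 1.25, unadjusted p = 0.0155). Rpl35 had 23.7, 14.6, 4.60, 12.5, 7.62 and 12.2 CPM in sham and 15.2, 35.9 and 31.1 CPM in tDCS mice, with U inside the sham range, and a log2 fold change of 1.15 (SE 0.43, 95% interval 0.23 to 2.08, unadjusted p = 0.0181). Many ribosomal protein mRNAs are known to start with a terminal oligopyrimidine (TOP) tract, through which their translation is regulated. To show it, the 30 bases around the transcription start are printed for the 4 genes with the smallest p that have such a run there, from RefSeq on GRCm38.p6, with the run from the first transcribed base in capitals.
Rpl28, chr7:4792950-4792979, plus strand: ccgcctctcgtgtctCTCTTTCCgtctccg
Rpl35, chr2:39005117-39005146, minus strand: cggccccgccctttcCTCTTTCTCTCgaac
Rps15a, chr7:118116133-118116162, minus strand: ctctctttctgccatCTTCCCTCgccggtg
Rpl35a, chr16:33056467-33056496, plus strand: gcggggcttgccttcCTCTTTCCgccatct
A run was counted where the first transcribed base was C and at least 4 bases of C or T followed it, on the transcribed strand. It was found at 14 of 71 start sites of 59 ribosomal protein genes of the list (19.7%) and at 823 of 32851 start sites of all genes (2.51%). These letters are a description of the starts, and start positions off by a base would hide a run. The log2 fold changes of Rps15a and Rpl35a were 0.88 and 0.66.

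Of 75 nuclear genes of the respiratory chain, 61 were above 0 (median 0.26, 2 at an unadjusted p under 0.05), and the median was 0.17 against W, Y and AA and 0.0018 without V. Ndufa4, a respiratory chain subunit, had 49.1, 20.6, 13.4, 19.0, 13.4 and 18.5 CPM in sham and 23.9, 73.1 and 40.8 CPM in tDCS mice, again highest in V and W, with a log2 fold change of 1.07 (SE 0.44, 95% interval 0.13 to 2.01, unadjusted p = 0.029). Uqcr10, of the third complex of the chain, had a log2 fold change of 0.82 (SE 0.38, 95% interval 0.00032 to 1.65, unadjusted p = 0.0499), and 0.53 against W, Y and AA. Of 7 protein genes of the mitochondrial genome, 6 were above 0 (median 0.33, and 0.21 against W, Y and AA), with mt-Co1 at 0.59 (SE 0.47, 95% interval -0.42 to 1.60, unadjusted p = 0.227) and mt-Nd6, which mt-Nd5 overlaps on the other strand, at 0.34 (SE 0.33, 95% interval -0.37 to 1.05, unadjusted p = 0.318), and 0.21 against W, Y and AA.

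Markers of skin and muscle were included because blood drawn through skin can carry their RNA. The 17 keratinocyte genes had the highest median of all lists, 1.18, with 14 above 0 and 6 at an unadjusted p under 0.05. Their summed level was 173, 456, 62.7, 163, 418 and 172 CPM in the sham mice and 131, 146 and 649 CPM in the tDCS mice. X was the highest, whereas U and V lay within the sham range, and the median was 1.32 against W, Y and AA and -0.14 without X. Ivl (involucrin, of the cornified envelope) had 0.609, 0.296, 0, 0, 0.113 and 0 CPM in sham and 0.382, 1.11 and 4.62 CPM in tDCS mice, and its log2 fold change of 3.53 was 2.10 without X. The 7 skeletal muscle genes summed to 12.0 to 25.8 CPM in sham and 17.9 to 26.1 CPM in tDCS mice, with 3 above 0 and a median of -0.11. Against W, Y and AA 6 of 7 were above 0 (median 0.34), and without U the median was 0.16. Tnnt3 (fast troponin T) stayed at 1.56 CPM or less in every mouse, and Tpm2 (tropomyosin) had a log2 fold change of 0.28 (SE 0.33, 95% interval -0.43 to 0.99, unadjusted p = 0.405). The part of skin RNA in the differences of single genes was not tested beyond leaving X out.

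Genes that respond within an hour or a day to stimuli were near the background. Immediate early genes had 10 of 19 above 0 (median 0.13, 1 at an unadjusted p under 0.05). Against W, Y and AA 9 of 19 were above 0 (median -0.00023), and the median was -0.21 without U and -0.22 without X. Egr3, a transcription factor of this class, had 1.29, 0.969, 0.455, 1.09, 2.02 and 0.590 CPM in sham and 1.39, 2.05 and 3.26 CPM in tDCS mice, a log2 fold change of 1.08 (SE 0.49, 95% interval 0.032 to 2.12, unadjusted p = 0.0442), with U inside the sham range and AZ level with V. Nr4a1, an orphan nuclear receptor of this class, had 7.80, 10.7, 23.7, 13.1, 9.73 and 17.9 CPM in sham and 8.65, 5.12 and 10.6 CPM in tDCS mice, a log2 fold change of -0.75 (SE 0.37, 95% interval -1.54 to 0.049, unadjusted p = 0.0637). Glucocorticoid response genes, a readout of stress hormone, had 8 of 13 above 0 (median 0.19, 0.048 against W, Y and AA, and -0.022 without U). Tsc22d3 (GILZ), a direct target of the receptor, had 120.2, 112, 70.7, 44.6, 67.4 and 42.6 CPM in sham and 132, 123 and 49.7 CPM in tDCS mice, a log2 fold change of 0.43 (SE 0.40, 95% interval -0.42 to 1.29, unadjusted p = 0.295), and 0.032 against W, Y and AA. Cxcr4, the receptor that holds leukocytes in the bone marrow, had 36.1, 31.6, 22.0, 13.3, 18.7 and 12.0 CPM in sham and 50.2, 44.3 and 17.2 CPM in tDCS mice, a log2 fold change of 0.75 (SE 0.40, 95% interval -0.098 to 1.61, unadjusted p = 0.0783), and 0.34 against W, Y and AA. In both, W and Y were near U and V, and X was near the other sham mice.

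Interferon response genes had 15 of 19 above 0 (median 0.32, and 0.17 against W, Y and AA) and 0 at an unadjusted p under 0.05, with Xaf1 at 0.75 (SE 0.40, 95% interval -0.10 to 1.61, unadjusted p = 0.0804) and Zbp1, a sensor of nucleic acids, at 0.55 (SE 0.30, 95% interval -0.085 to 1.19, unadjusted p = 0.0838), and 0.32 against W, Y and AA. Genes of inflammatory cytokines and NF-kB had 6 of 16 above 0 (median -0.20, and -0.51 against W, Y and AA), and leaving out 1 mouse gave medians of -0.38 to 0.051, above 0 without Y. The chemokine Ccl3 was at 0.81 (SE 0.48, 95% interval -0.23 to 1.85, unadjusted p = 0.116), with 0.39 against W, Y and AA, and Il1rn, the antagonist of the interleukin-1 receptor, at -0.52 (SE 0.33, 95% interval -1.23 to 0.19, unadjusted p = 0.137). Heat shock genes had 6 of 12 above 0 (median 0.05, and -0.037 against W, Y and AA), with Dnajb1 at -0.42 (SE 0.30, 95% interval -1.07 to 0.22, unadjusted p = 0.177) and Hspd1 at -0.38 (SE 0.29, 95% interval -0.9978 to 0.24, unadjusted p = 0.209). Dnajb1 was at -0.069 against W, Y and AA, and the heat shock median was -0.045 without V and -0.031 without X. MHC class I genes had 6 of 15 above 0 (median -0.01), and 2 of 15 against W, Y and AA (median -0.24), while leaving out 1 mouse gave medians of -0.19 to 0.13. Tapbp (tapasin) was at -0.45 and H2-Q6 at -0.67, and at -0.23 and -1.08 against W, Y and AA. MHC class II genes had 2 of 10 above 0 (median -0.10, and -0.15 against W, Y and AA), with H2-Ob at -0.37 and H2-DMb1 at 0.39, the latter at 0.25 against W, Y and AA.

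Genes of synaptic plasticity, some of them hardly detected in these libraries, had 2 of 9 above 0 (median -0.30, and -0.09 against W, Y and AA). Camk2a, a kinase of the postsynapse, was at 0.455 CPM or less in the sham mice and at 1.39, 0 and 0.195 CPM in U, V and X, with a log2 fold change of 2.53 (SE 1.42, 95% interval -0.52 to 5.59, unadjusted p = 0.0965). Leaving out 1 mouse in turn gave Camk2a values of 0.26 to 5.59. Ntrk2, the receptor of BDNF, was highest in AY, AZ and BA (0.0380, 0.296, 0, 0.839, 1.72 and 2.23 CPM in the order of the sham mice), and its log2 fold change turned from -2.31 to 0.57 against W, Y and AA. Clock genes had 3 of 13 above 0 (median -0.23, and -0.0010 against W, Y and AA). Nr1d2, a repressor of the clock, had 6.54, 10.2, 10.8, 4.03, 7.64 and 6.02 CPM in sham and 5.84, 3.96 and 4.88 CPM in tDCS mice, a log2 fold change of -0.61 (SE 0.32, 95% interval -1.30 to 0.088, unadjusted p = 0.0817), and Tef, a clock output factor, one of -0.50 (SE 0.26, 95% interval -1.07 to 0.064, unadjusted p = 0.0779). Sessions were held at about the same hour of the day.

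**Figure D5:**
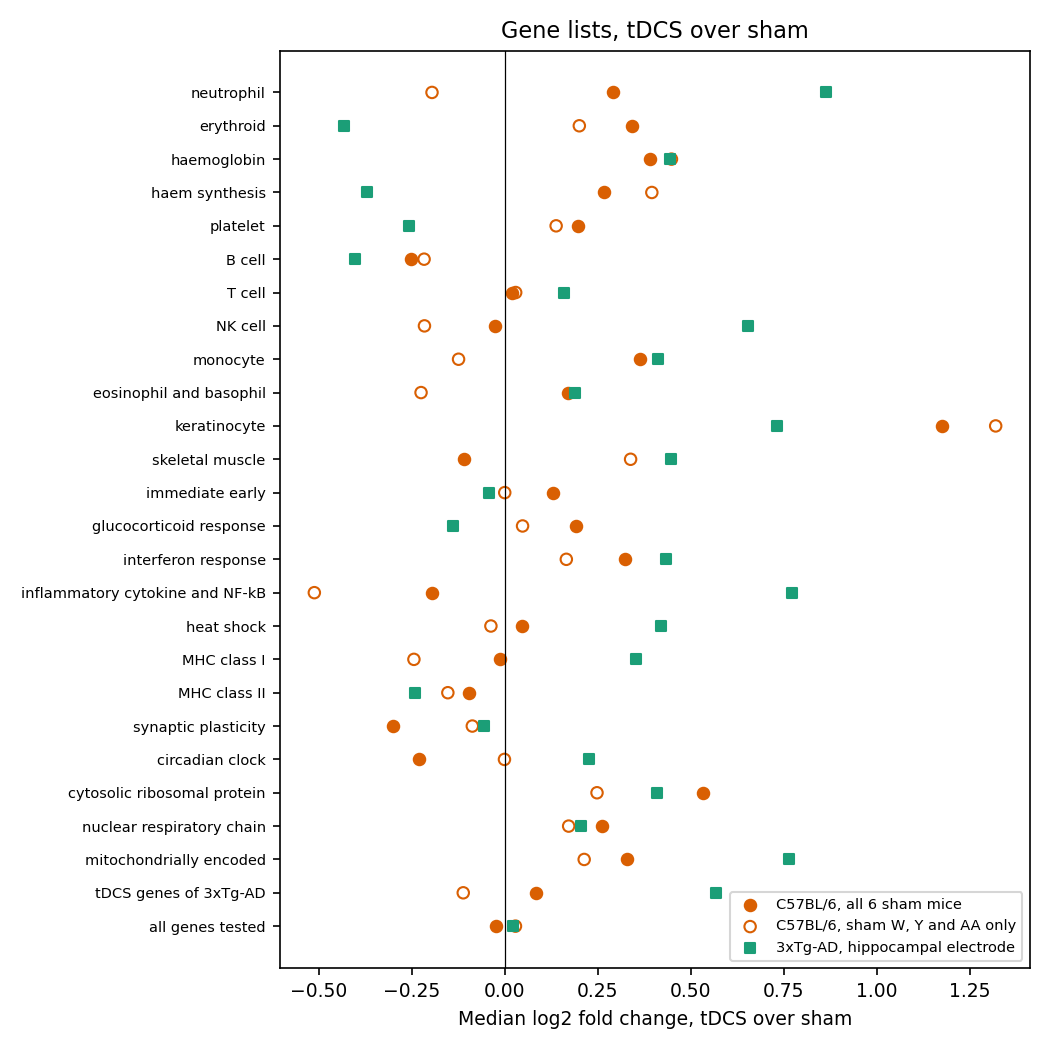
Median log2 fold change, tDCS over sham, of each gene list, in C57BL/6 mice with all 6 sham mice (filled orange) and with sham mice W, Y and AA only (open orange), and in 3xTg-AD mice with the hippocampal electrode (green squares), with all genes tested in the bottom line. Keratinocyte genes have the highest C57BL/6 median (1.18), and neutrophil genes lie at 0.29, -0.20 and 0.86 in the 3 comparisons.

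The study lists 25 genes for tDCS in 3xTg-AD mice of 6 mo. None of those mice is among the 9 described here, but 13 of them are the 3xTg-AD mice used here, so the list's 3xTg-AD values are no independent evidence of its direction. In the C57BL/6 mice 0 of the 25 genes were called, 0 were at an unadjusted p under 0.05, 16 had a fold change above 0, and the median was 0.08 (-0.11 against W, Y and AA). The list holds genes of both directions, with 14 of the 25 above 0 in the 3xTg-AD mice used here. The count above 0 and the median therefore do not show whether the strains shared a direction gene by gene, which was not tested. Pabpc1, the cytosolic poly(A)-binding protein, had 7976, 5738, 8376, 33062, 7119 and 37305 CPM in sham and 8796, 8552 and 15994 CPM in tDCS mice, with AY and BA far above the others. Its log2 fold change was -0.57 (SE 0.69, 95% interval -2.06 to 0.92, unadjusted p = 0.427) and 0.62 against W, Y and AA. Crat, carnitine acetyltransferase, had 22.9, 10.5, 22.5, 48.1, 19.6 and 43.7 CPM in sham and 21.9, 23.5 and 30.9 CPM in tDCS mice, a log2 fold change of -0.12 (SE 0.41, 95% interval -1.0017 to 0.77, unadjusted p = 0.784). Ybx3, a cold shock protein that binds RNA, had 793, 429.8, 688, 1715, 644 and 1319 CPM in sham and 796, 792 and 1068 CPM in tDCS mice, a log2 fold change of -0.059 (SE 0.43, 95% interval -0.99 to 0.87, unadjusted p = 0.892). Ago2, the slicing Argonaute of RNA interference, had 97.1, 62.2, 129.6, 165, 72.1 and 117 CPM in sham and 129, 78.9 and 90.1 CPM in tDCS mice, a log2 fold change of -0.10 (SE 0.33, 95% interval -0.82 to 0.62, unadjusted p = 0.762). Against W, Y and AA alone the values of Crat, Ybx3 and Ago2 turned to 0.48, 0.50 and 0.066.

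In all 4 genes the tDCS mice lay within the sham range. The 95% intervals of Crat, Ybx3 and Ago2 lie between -1.0017 and 0.87 on the log2 scale. Sept1 and Ap1b1, the 2 genes of the list with the smallest p, had log2 fold changes of -0.78 (SE 0.46, 95% interval -1.78 to 0.22, unadjusted p = 0.114) and -0.49 (SE 0.29, 95% interval -1.11 to 0.14, unadjusted p = 0.117), and were at -0.039 and -0.18 against W, Y and AA.

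Whether the response differed between the strains was tested as an interaction over the 22 mice of 6 mo. with the hippocampal electrode. edgeR called 0 of 15613 genes (0%), with 856 (5.48%) at an unadjusted p under 0.05 and a smallest adjusted p of 0.617. DESeq2 called 0, with 846 (5.42%) at an unadjusted p under 0.05. In the 13 3xTg-AD mice alone edgeR called 0 of 15599 genes, with 1392 (8.92%) at an unadjusted p under 0.05. Across 9654 genes at a mean of 1 CPM or more, the log2 fold changes of the strains had Pearson's r = -0.321, and over all 15578 genes -0.150. These are correlations across genes, which are not independent replicates, between comparisons that share no mouse. Among the 3xTg-AD mice, the ratio of alpha to beta globin reads was 1.84 and 2.95 in tDCS mice AM and AN and 0.643 in sham mouse AQ, and at most 0.298 in the other 10. The part of these libraries in the interaction was not tested beyond leaving out each mouse.

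Egr3 had the second smallest p of the interaction. In 3xTg-AD mice it was at 2.55 ± 1.79 CPM in sham and 0.620 ± 0.298 CPM in tDCS mice, whereas in C57BL/6 mice the tDCS group had the higher mean, and the log2 difference between strains was 3.14 (95% interval 1.63 to 4.66, unadjusted p = 2.57e-04). Zfp974, named after its value was seen, had the smallest p, with a log2 difference of -3.65 (95% interval -5.30 to -1.9996). For the genes of the study's list, the log2 difference between strains was 0.96 (95% interval -0.46 to 2.38, unadjusted p = 0.178) for Pabpc1, 0.72 (95% interval -0.20 to 1.64, unadjusted p = 0.121) for Crat, 0.83 (95% interval -0.083 to 1.74, unadjusted p = 0.073) for Ybx3 and 0.60 (95% interval -0.13 to 1.33, unadjusted p = 0.104) for Ago2. These intervals all include 0. Of the 25 genes, 4 were at an unadjusted p under 0.05, beside 5.48% of all genes, and 0 were called. The list was chosen for a tDCS effect in 3xTg-AD mice that include those used here. That effect is part of the interaction, so small p values of these genes were favoured beforehand. Neutrophil genes had a median of 0.86 in the 3xTg-AD mice, with 16 of 16 above 0 (51.6% of all genes there), beside 0.29 and 13 of 16 in the C57BL/6 mice, and 0 of the 16 were called in the interaction. Cytosolic ribosomal protein genes lay on the higher side in both strains. In the 3xTg-AD mice their median was 0.41, with 73 of 81 above 0, beside 0.53 and 77 of 81. So did nuclear genes of the respiratory chain, at 0.20 with 60 of 75 above 0, beside 0.26 and 61 of 75. Erythroid genes lay at -0.43 in the 3xTg-AD mice, with 1 of 16 above 0, beside 0.34 and 14 of 16. Haem synthesis genes lay at -0.37, with 0 of 8 above 0, beside 0.27 and 8 of 8. Alas2 and Fech are in both lists, and all members share the libraries, so these are no counts of independent observations. In the interaction 0 genes of either list were called, and 1 in each was at an unadjusted p under 0.05, beside 5.48% of all genes. These were Ermap with a log2 difference of 1.21 (95% interval 0.39 to 2.03, unadjusted p = 0.00542) and Cpox with one of 1.18 (95% interval 0.12 to 2.23, unadjusted p = 0.0301). Elovl5 and Cers4, which were high in sham mice AY, AZ and BA, had log2 differences between strains of -6.25 (95% interval -9.40 to -3.10, unadjusted p = 4.04e-04) and -5.07 (95% interval -7.95 to -2.20, unadjusted p = 0.00127). In 3xTg-AD mice Elovl5 was at 43.2 ± 14.3 CPM in sham and 165 ± 229 CPM in tDCS mice. The 27 genes picked for being high in AY, AZ and BA summed to 428 CPM in 3xTg-AD tDCS mouse AM, 141 CPM in AN and 33.8 CPM in AL, and to at most 3.03 CPM in the other 10 3xTg-AD mice. The part of these 3 mice in the strain differences of the 2 genes was not tested.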

How the data were processed

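The authors depleted globin RNA, made 3′ mRNA libraries, sequenced them on the Ion Proton, trimmed reads (cutadapt 1.14, per the submitters' processing notes) and aligned and counted them per gene with STAR 2.6 on mm10. The deposited values are these counts, not normalized, for 15613 genes kept by the authors above a count minimum. The strand setting is not stated. Names and coordinates came from GENCODE M21 (GRCm38), where 15607 identifiers matched.

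Mice were grouped by their labels. All genes with a minimum of 1 read over the 9 mice were tested in R 4.3.3 with edgeR 4.0.16 (TMM, quasi-likelihood F test, two-sided, Benjamini-Hochberg adjusted p under 0.05). The study's covariate for site is constant here, and its RNA integrity number is not in the labels and was not used. The strain by tDCS interaction was fitted over 22 mice. Each SE was obtained as the size of the log2 fold change over the root of its F statistic. Library measures were compared by exact permutation over mice. No list was tested as a set. Floors cover counting error only, and a count of 0 allows up to 3 reads in a library.

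Alternatives were DESeq2 1.42.0 (likelihood ratio test), RLE size factors, limma 3.58.1 voom with sample weights, other filters, all 42 mice, the study's design with site, the haemoglobin share as covariate or its genes taken out, sham mice W, Y and AA only, and each mouse left out in turn. For the gene lists, the settings with W, Y and AA only and with mice left out were chosen after seeing the data. Named genes are, in each direction, the 10 with the smallest p among genes at 1 CPM or more in a group and with an informative symbol, the 2 with the smallest p in each list (a pair of these genes is not reported here), and Pabpc1, Crat, Ybx3 and Ago2. The comparison, the lists and the rules were chosen with earlier results of these data known. Per the labels each library is 1 mouse, and no batch is given. Other named genes that overlap another gene on some strand, and are uncertain for it, include Cpox, Eomes, Lck, Tnnt3, Tapbp, Hspd1, Ntrk2, Tef, Rpl28, Rpl35, Crat, Sept1, Ap1b1 and Ago2.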

Additional observations from a re-analysis of the deposited data

Results flagged for a closer look

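Among the 6 sham mice, W was flagged as apart from the others in 2 of the 49 quantities looked at. Chance flags about 1 in 20 groups, so this count is no more than chance alone would give. The summed level of the monocyte list was 1151 CPM in W and 558 to 707 CPM in the other 5 sham mice, and its gap to the nearest was 0.749 of the range of the group. Ppil1 was at 5.36 CPM in W and at 2.43 to 3.50 CPM in the other 5, with a gap of 0.636 of the range. W is also the sham mouse whose library is closest to that of tDCS mouse V. Without W, the log2 fold change of Ppil1 was 1.30 in edgeR. The part of W in the other results was not tested beyond leaving W out.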

How the results depend on the processing

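The count of genes called between tDCS and sham was 0 in edgeR and in all 19 alternatives, with a smallest adjusted p of 0.212, in the fit of all 42 mice. At an unadjusted p under 0.05 the count of 514 became 246 with sham mice W, Y and AA only, 650 in the study's design with site, 617 with the haemoglobin share as covariate, and 339 (without AZ) to 1110 (without W) when 1 mouse was left out. The interaction gave 0 in its 26 alternatives, with 686 to 1018 genes at an unadjusted p under 0.05 when 1 mouse was left out. The median log2 fold change of all genes, -0.02, was -0.0019 with RLE size factors, -0.0029 by DESeq2 and 0.00038 by limma voom.

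Of 73 named genes 63 kept their direction under every alternative run and 10 turned at least once. With W, Y and AA only, the log2 fold change turned to 0.082 for Ltf, 0.057 for Hba-a1, 0.20 for Hba-a2, 1.18 for Tnnt3, 0.57 for Ntrk2, 0.62 for Pabpc1, 0.48 for Crat, 0.50 for Ybx3 and 0.066 for Ago2. By limma voom Crat turned to 0.052 and Ybx3 to 0.053, and with the haemoglobin share Ybx3 was 0.037. Leaving out 1 mouse gave -0.046 to 0.74 for Cpox, -2.08 to 0.087 for Tnnt3, -0.28 to 0.12 for Crat, -0.22 to 0.21 for Ybx3 and -0.30 to 0.069 for Ago2. List medians with W, Y and AA only were -0.12 for monocyte, 0.34 for skeletal muscle, -0.087 for synaptic plasticity, -0.0010 for clock genes and -0.11 for the 25 tDCS genes. Leaving out 1 mouse gave medians of -0.14 to 1.68 for keratinocyte, -0.51 to 0.16 for skeletal muscle, -0.22 to 0.31 for immediate early, -0.022 to 0.22 for glucocorticoid response, -0.52 to -0.049 for clock and 0.0018 to 0.43 for respiratory chain genes. For the library measures, tDCS minus sham, it gave -395261 to 2339080 reads, -4.34 to 0.924 percentage points on haemoglobin genes, -262 to 272 genes with a read and -0.0913 to 4.53 percentage points on the 10 most abundant genes. Apart from the fits that leave mice out by construction, the causes were not tested. No paired analysis was possible because the labels give the mice titles and no replicate numbers that groups share. Depth limits genes below 1 CPM, where the median SE was 0.96.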
